A study of Oryza sativa with 11 samples.

Results

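The plant circadian clock is a set of transcription factors that repress each other in turn through the day. In Arabidopsis, the morning MYB factors CCA1 and LHY repress evening genes, the pseudo-response regulators (PRRs) follow one another from morning to evening and repress CCA1 and LHY, and the evening complex of ELF3, ELF4 and LUX represses genes at dusk and in the night. GIGANTEA (GI) links the clock to the stability of other clock proteins and to flowering, and rice carries counterparts of all of these genes. Because transcripts of the clock cycle daily, their level in a sample depends on the hour at which it was taken, and the hour of collection of these anthers is not given in the sources used here.

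The 9 loci examined were PRR1 (LOC_Os02g40510), PRR37 (LOC_Os07g49460), PRR59 (LOC_Os11g05930), PRR73 (LOC_Os03g17570), PRR95 (LOC_Os09g36220), LUX (LOC_Os01g74020), ELF3-1 (LOC_Os06g05060), CCA1/LHY (LOC_Os08g06110) and GI (LOC_Os01g08700), out of 55986 loci in the table. This list of MSU rice locus IDs was chosen with earlier results of these data known. Messenger RNA of anthers from field-grown rice (Oryza sativa) was sequenced in 11 untreated libraries, with 3 biological replicates each of wild type (WT) at anther stage 10, the ostie1-1 mutant at stage 10 and WT at stage 12, and 2 of ostie1-1 at stage 12. OsTIE1 is described by the series as a transcriptional repressor acting in anther dehiscence and jasmonate synthesis. The variety, the kind of lesion in ostie1-1 and the number of plants in a replicate are not given in the sources used here, ostie1-1 is a single mutant allele, and the OsTIE1 transcript was not used here as a check of the labels. The p-values therefore measure the spread between libraries that the labels call biological replicates. Since the libraries are of whole anthers, fewer cells of a type and less RNA per cell cannot be told apart.

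Levels are given as FPKM, by its name a fragment number divided by transcript length and library size, deposited for each transcript model and summed here over the models of a locus. How the authors computed it is not given in the sources used here. FPKM summed to between 749507 and 845797 per library, relative depth read from the spacing of low values lay between 0.914 and 1.17 times that of WT stage 10 replicate 1, and 17012 to 19162 loci reached 1 FPKM. WT stage 10 replicate 3 stood apart. Pearson's r of log2 levels was 0.79 and 0.80 between it and the remaining WT stage 10 libraries and 0.98 between those, whereas r between it and the stage 10 mutant libraries was 0.88 to 0.90. The summed FPKM of 10 green tissue markers (chlorophyll-binding and Rubisco genes) was 1607 in that library, against 83.0 and 67.8 in replicates 1 and 2 and 16.9 to 36.1 in the stage 10 mutant. Of that list, RBCS-a, LHCA1 and LHCA3 were listed at 0 in every library. At stage 12 the green sum was 105 to 118 in WT and 9.99 to 41.3 in the mutant. Of the 10 markers 5 were tested, and 0 passed at stage 10 (limma adjusted p = 0.138 to 0.438) or stage 12 (0.302 to 0.700). Of all loci, 2.91% passed at stage 10 and 3.53% at stage 12. By unadjusted limma p, 3 of the 5 were below 0.05 at stage 10 and 0 at stage 12, against 18.8% and 19.7% of all loci. In the mean over the stages, a contrast added after the data were seen, 1 of the 5 passed, lower in the mutant, as did 3.55% of all loci. In that contrast 4 of the 5 were at an unadjusted p below 0.05, as were 32.7% of all loci, with a median log2 fold change of -2.25. The part of these sums in the clock results was not tested. The anther label was checked against 8 tapetum markers, whose sum was 5620 to 13887 at stage 10 and 343 to 2028 at stage 12, with GAMYB listed at 0. Late pollen markers summed to 53.1 to 319 at stage 10 and 1432 to 4164 at stage 12. Pistil and glume markers summed to at most 0.146, with DL and MADS14 listed at 0. Since GAMYB and some green tissue markers were also listed at 0, these low sums are not read as absence of other tissue. The stamen identity MADS genes summed to 58.7 to 74.9 in WT and 88.1 to 182 in the mutant at stage 10, and to 31.6 to 44.4 and 89.8 to 101 at stage 12. Of the 4, MADS3 and MADS4 passed the expression filter. By the limma test described below, neither passed at stage 10 (adjusted p = 0.0784 and 0.0767). At stage 12 MADS3 was higher in the mutant (0.0251) while MADS4 did not pass (0.129). Of all loci, 2.35% were higher by that test at stage 10 and 3.23% at stage 12. In the mean over the stages both passed, higher in the mutant, as did 9.52% of all loci. The part of this list in the clock results was not tested.

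Of the 9 clock loci, 4 had at least 1 FPKM in at least 2 libraries and were tested: PRR1, LUX, PRR73 and ELF3-1. By mean FPKM, PRR1 was the most abundant of them in both mutant groups and in stage 10 WT, and ELF3-1 in stage 12 WT, where it differed from PRR1 by less than the SD of PRR1. Differences between groups were tested with limma on log2(scaled FPKM + 1) across all 21279 loci past that filter, where scaling divided each library by its median-of-ratios factor (0.734 for WT stage 10 replicate 3 to 1.33 for WT stage 12 replicate 1). Adjusted p-values are Benjamini-Hochberg values over all loci tested, and a locus passed below 0.05. The pseudocount of 1 makes fold changes smaller for genes of low FPKM.

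PRR1, the evening pseudo-response regulator that is the rice counterpart of Arabidopsis TOC1, was higher in ostie1-1 than in WT at both stages. At stage 10 its FPKM was 22.4, 26.0 and 13.3 in WT and 44.3, 45.4 and 47.2 in the mutant, giving 20.6 ± 6.54 and 45.6 ± 1.45 (SD, n = 3 each). At stage 12 it was 16.2, 17.9 and 11.8 in WT (15.3 ± 3.19, n = 3) and 30.2 and 30.1 in the mutant (30.2 ± 0.0678, n = 2). Every mutant library stood above every WT library, across the stages as well as within them, and the lowest WT value at each stage came from replicate 3.

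**Figure D1:**
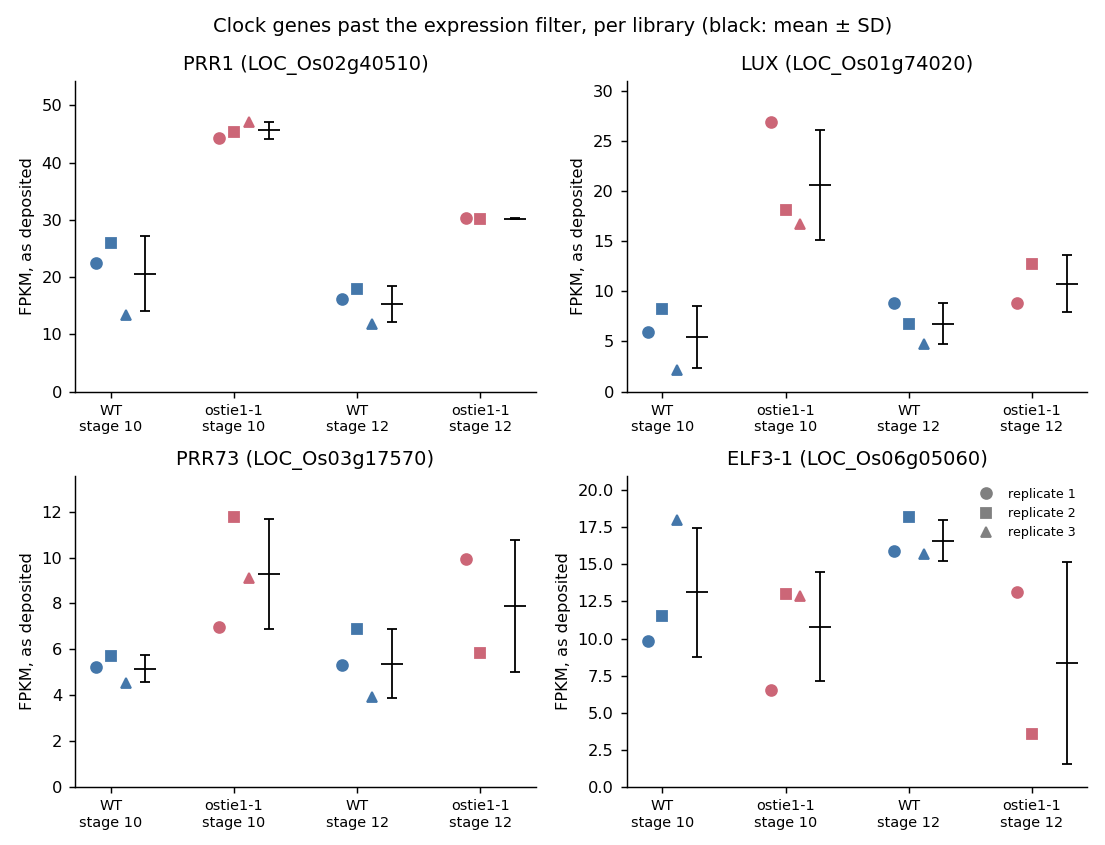
FPKM of the 4 tested clock genes as deposited (y axis, FPKM; each panel has its own scale from 0) in the 4 groups (x axis), with 1 symbol per library, shaped by replicate number, and the mean ± SD in black. PRR1 lies between 11.8 and 26.0 in the 6 WT libraries and between 30.1 and 47.2 in the 5 mutant libraries, while the groups of ELF3-1 overlap at stage 10.

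LUX, the MYB factor of the evening complex, had a stage 10 FPKM of 5.96, 8.23 and 2.15 in WT (5.44 ± 3.07, n = 3) and 27.0, 18.2 and 16.8 in the mutant (20.6 ± 5.54, n = 3). The groups did not overlap, and WT replicate 3 was again the lowest library. The stage 12 FPKM was 8.89, 6.72 and 4.77 in WT (6.79 ± 2.06, n = 3) and 8.80 and 12.8 in the mutant (10.8 ± 2.82, n = 2). As deposited the groups overlapped here, since mutant replicate 1 lay just under WT replicate 1. After scaling they did not, with log2 levels of 2.94, 2.75 and 2.45 in WT and 3.32 and 3.96 in the mutant.

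PRR73, a pseudo-response regulator of the PRR3 and PRR7 branch, had a stage 10 FPKM of 5.24, 5.71 and 4.52 in WT (5.15 ± 0.601, n = 3) and 6.99, 11.8 and 9.12 in the mutant (9.29 ± 2.40, n = 3), without overlap. The later stage gave 5.30, 6.90 and 3.90 in WT (5.37 ± 1.5, n = 3) and 9.93 and 5.83 in the mutant (7.88 ± 2.90, n = 2), and mutant replicate 2 fell inside the WT range as deposited. The scaled log2 levels were 2.32, 2.78 and 2.22 in WT and 3.48 and 2.93 in the mutant, without overlap. Deposited WT levels of PRR73 were thus within 1 SD of each other at the 2 stages.

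ELF3-1, the scaffold of the evening complex, had a stage 10 FPKM of 9.81, 11.5 and 18.0 in WT (13.1 ± 4.33, n = 3) and 6.53, 13.0 and 12.9 in the mutant (10.8 ± 3.70, n = 3). The groups overlapped, and WT replicate 3 was the highest library. Its stage 12 FPKM was 15.9, 18.2 and 15.7 in WT (16.6 ± 1.40, n = 3) and 13.2 and 3.53 in the mutant (8.35 ± 6.81, n = 2). Both mutant libraries lay below WT as deposited, but after scaling mutant replicate 1 (log2 level 3.85) lay above WT replicate 1 (3.70). The mutant libraries differed in FPKM from each other by more than mutant replicate 1 differed from any WT library.

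At stage 10, 2 of the 4 tested clock genes passed, both higher in ostie1-1, against 2.91% of all loci tested (2.35% higher and 0.555% lower). The list was chosen with earlier results of these data known, so its shares beside those of all loci are descriptions here and below. The log2 fold change of PRR1 was 1.32 (SE 0.24, 95% confidence interval 0.78 to 1.85, limma adjusted p = 0.0166) and that of LUX was 2.03 (SE 0.38, 1.19 to 2.86, adjusted p = 0.0177). PRR73 and ELF3-1 did not pass, at 0.86 (SE 0.31, adjusted p = 0.178) and -0.14 (SE 0.47, 0.894). By unadjusted p, 3 of the 4 were below 0.05, as were 18.8% of all loci. The median log2 fold change of the 4 was 1.09, and that of all loci -0.01. PRR1, LUX and PRR73 were higher in the mutant without overlap of the deposited FPKM, as were 11.4% of all loci, and also on scaled levels, as were 10.9%.

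These stage 10 calls rested on particular libraries and on the scaling. The limma adjusted p of PRR1 was 0.0919 when WT replicate 1 of stage 10 was left out and 0.0585 for WT replicate 2, 0.0823 for mutant replicate 2 and 0.0508 for mutant replicate 3. That of LUX was 0.0713 with WT replicate 1 left out, 0.0614 for mutant replicate 1 and 0.0682 for mutant replicate 2. Leaving out WT stage 10 replicate 3 instead lowered the adjusted p of both (PRR1 1.28, adjusted p = 0.00282; LUX 1.77, 0.00471), brought PRR73 past the threshold (0.99, 0.0266) and turned ELF3-1 to 0.33 (0.570), with 7118 loci passing in place of 619. With FPKM as deposited PRR1 did not pass (1.16, adjusted p = 0.0855) while LUX did, and after rescaling to TPM neither passed (PRR1 1.09, 0.133; LUX 1.82, 0.0564). Neither passed with only the 6 stage 10 libraries in the fit (adjusted p = 0.0965 and 0.101). The median of all loci moved from -0.01 to -0.13 and -0.20 with FPKM as deposited and TPM.

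At stage 12, PRR1 was the 1 of 4 clock genes that passed, against 3.53% of all loci (3.23% higher and 0.301% lower). Its log2 fold change was 1.29 (SE 0.27, 95% confidence interval 0.69 to 1.89, limma adjusted p = 0.0274). LUX had 0.93 (SE 0.42, adjusted p = 0.256), PRR73 0.77 (SE 0.35, 0.250) and ELF3-1 -0.81 (SE 0.52, 0.406). By unadjusted p, 2 of the 4 were below 0.05, as were 19.7% of all loci. The median of the 4 was 0.85, beside 0.05 for all loci. The lower deposited FPKM of ELF3-1 without overlap was shared by 31.8% of all loci, and the higher one of PRR1 by 17.0%. On scaled levels PRR1, LUX and PRR73 were higher without overlap, as were 25.8% of all loci. The call for PRR1 was lost without any of the 5 stage 12 libraries (adjusted p = 0.0804, 0.0572 and 0.0898 for WT replicates 1 to 3 and 0.0877 and 0.167 for mutant replicates 1 and 2) and without ostie1-1 stage 10 replicate 2 (0.0586). It was also lost with FPKM as deposited (0.96, adjusted p = 0.199) and TPM (0.87, 0.247), where the median of all loci was -0.21 and -0.30.

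The genotype difference did not differ detectably between the stages. None of the 4 genes passed the limma test of that difference (adjusted p = 0.999 for each, 0 at an unadjusted p below 0.05), against 0.0188% of all loci by adjusted p and 5.43% by unadjusted p. The stage 12 minus stage 10 change in the log2 genotype effect was -0.03 for PRR1 (SE 0.37), -1.10 for LUX (SE 0.57, 95% confidence interval -2.35 to 0.15), -0.09 for PRR73 and -0.68 for ELF3-1, with a median of -0.38 beside 0.04 for all loci. For LUX the interval spans from a much smaller difference at stage 12 to a slightly larger one.

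Averaged over the stages, a contrast added after the data were seen, 3 of the 4 genes were higher in ostie1-1, against 13.1% of all loci (9.52% higher and 3.55% lower). PRR1 had a mean log2 fold change of 1.31 (SE 0.18, 95% confidence interval 0.90 to 1.71, limma adjusted p = 0.00186), LUX of 1.48 (SE 0.28, 0.85 to 2.10, 0.00901) and PRR73 of 0.81 (SE 0.23, 0.30 to 1.32, 0.0427). ELF3-1 had -0.47 (SE 0.35, adjusted p = 0.362), and the median of the 4 was 1.06 beside 0.03. PRR1 and LUX passed in all 11 fits that left out 1 library and in all 10 other alternatives, with adjusted p up to 0.0337 and 0.0477. PRR73 passed in 1 of the 11, the fit without WT stage 10 replicate 3 (adjusted p = 0.00736), and in 6 of the 10 others. In the other 10 of the 11 its adjusted p was 0.0576 to 0.114. Over all loci, 2026 were higher and 756 lower, and this split moved to 1503 and 1204 with TPM and to 1827 and 1125 with quantile normalization.

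**Figure D2:**
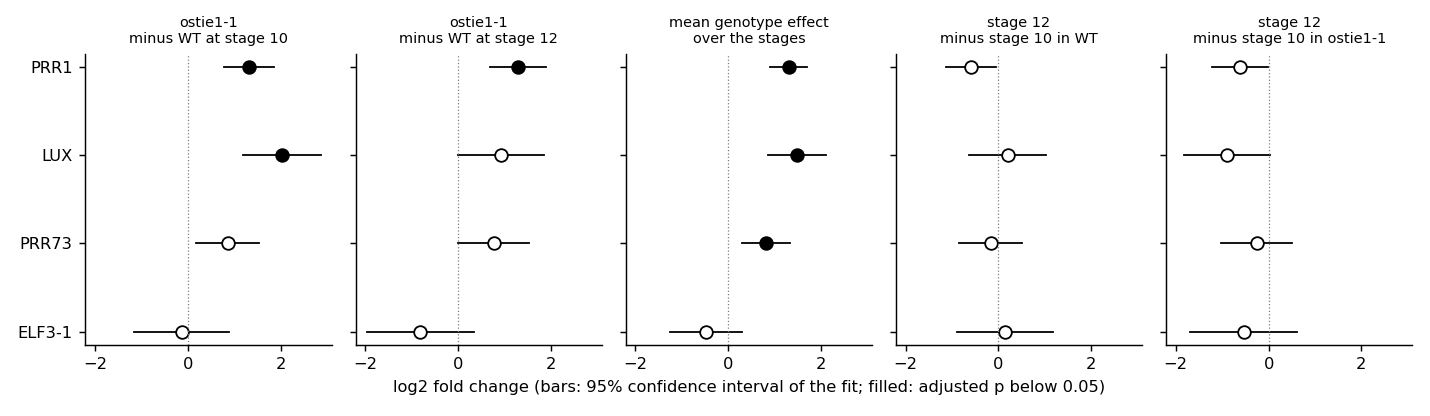
Log2 fold changes of PRR1, LUX, PRR73 and ELF3-1 (x axis) in 5 comparisons from 1 limma fit over 11 libraries. Points are estimates, bars are 95% confidence intervals and filled points have adjusted p below 0.05. PRR1 is near 1.3 in each genotype comparison, and no gene passes in either stage comparison.

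**Figure D3:**
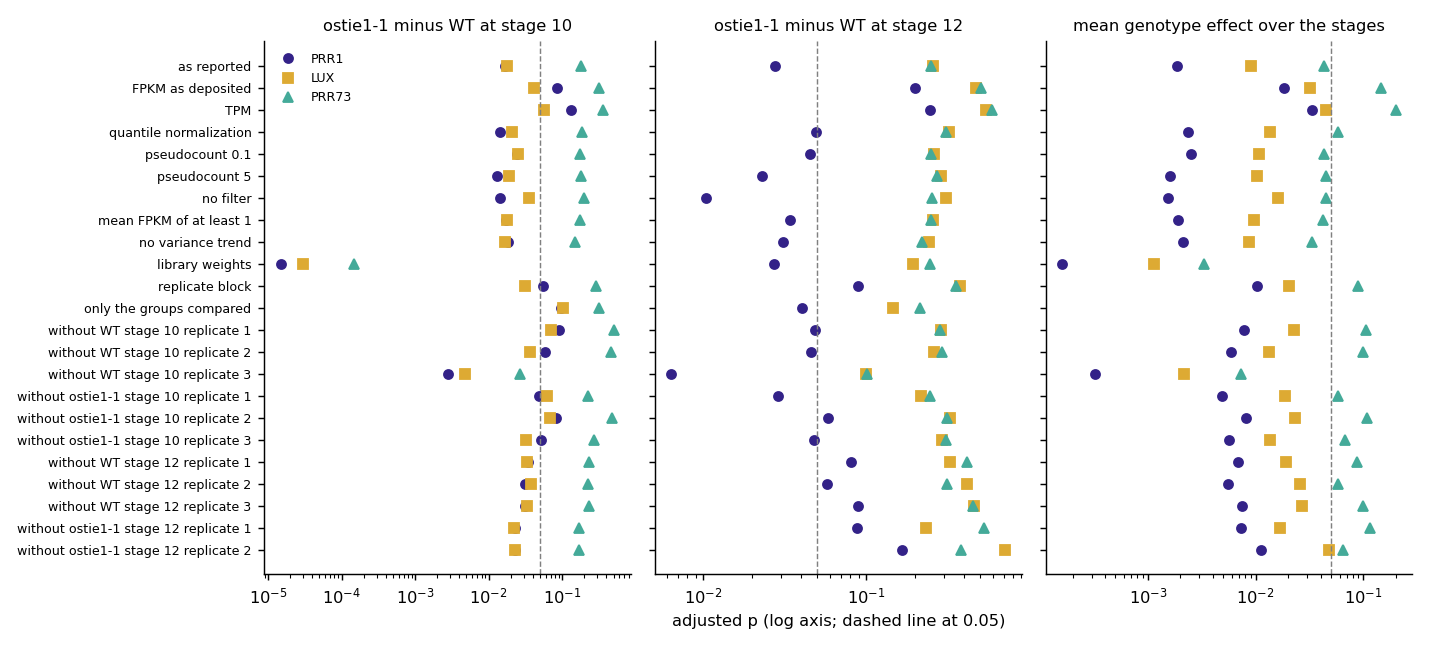
Adjusted p (x axis, log scale) of PRR1, LUX and PRR73 in the 3 genotype comparisons, for the reported setting and each alternative (y axis). The dashed line marks 0.05. In the mean over the stages PRR1 and LUX stay to the left of the line throughout, at most 0.0477, whereas within a stage points fall on both sides.

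Since the calls within a stage depended on how libraries were scaled, each gene was also set against ELF3-1 in the same library, a ratio that no scaling of libraries alters. These ratios were chosen after the data were seen and carry no test. The log2 ratio of PRR1 to ELF3-1 at stage 10 was 1.19, 1.18 and -0.43 in WT and 2.76, 1.80 and 1.87 in the mutant. In stage 12 libraries it was 0.02, -0.02 and -0.42 in WT and 1.2 and 3.09 in the mutant. Each mutant library exceeded each WT library of its stage. Of all loci, 17.7% were separated from WT in this way at stage 10 and 37.4% at stage 12 by their ratio to ELF3-1, so the separation at stage 12 was shared by many loci.

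The same order held for LUX, whose log2 ratio to ELF3-1 was -0.72, -0.48 and -3.07 in stage 10 WT and 2.05, 0.49 and 0.38 in the mutant. At stage 12 it was -0.84, -1.44 and -1.72 in WT and -0.58 and 1.85 in the mutant, so the groups were separated there, but mutant replicate 1 lay close to WT. For PRR73 it was -2.0 to -0.90 in stage 10 WT and -0.50 to 0.10 in the mutant, and -2.01 to -1.40 and -0.41 to 0.72 at stage 12. In these libraries the ratios of the 3 genes to ELF3-1 were higher in the mutant, which was not tested, and a ratio cannot tell which gene moved. The ratios also carry the spread of ELF3-1, whose FPKM was 18.0 in WT stage 10 replicate 3 and 3.53 in ostie1-1 stage 12 replicate 2.

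**Figure D4:**
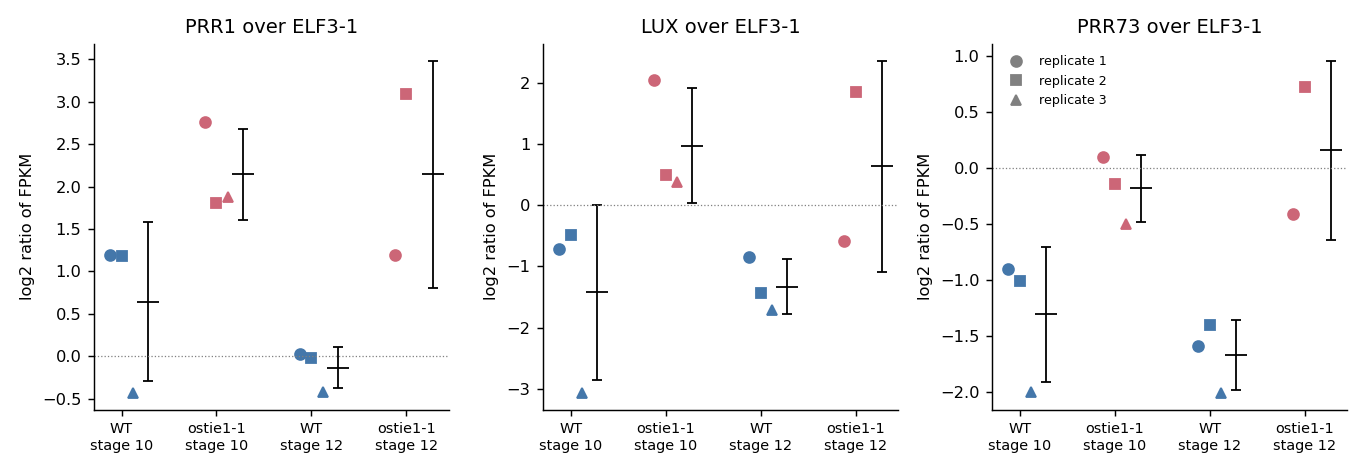
Log2 ratio of the FPKM of PRR1, LUX and PRR73 to that of ELF3-1 in the same library (y axis) by group (x axis), with 1 symbol per library and the mean ± SD in black. In each panel the mutant libraries lie above the WT libraries of the same stage, and ostie1-1 at stage 12 is widely spread (-0.58 and 1.85 for LUX).

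Between the stages, none of the 4 genes passed in either genotype. In WT, PRR1 had the lowest unadjusted p, with a log2 stage 12 minus stage 10 difference of -0.58 (SE 0.24, limma adjusted p = 0.30). LUX had 0.20, PRR73 -0.16 and ELF3-1 0.14, with adjusted p of 0.849 to 0.923. By unadjusted p, 1 of the 4 was below 0.05, as were 14.1% of all loci, and by adjusted p 2.62% of all loci passed. In ostie1-1, PRR1 had -0.61 (SE 0.27, adjusted p = 0.194), LUX -0.90 (SE 0.42, 0.217), PRR73 -0.26 (0.703) and ELF3-1 -0.54 (0.579), again with 1 below 0.05 unadjusted. Of all loci, 24.7% were below 0.05 unadjusted and 10.7% passed. The median of the 4 was -0.01 in WT and -0.57 in the mutant, beside -0.04 for all loci in each.

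Among themselves, the scaled log2 levels of PRR1, LUX and PRR73 were positively correlated over the 11 libraries, and ELF3-1 did not follow them. Within each group, the order of the libraries differed between LUX and PRR73. Pearson's r was 0.89 between PRR1 and LUX, 0.87 between PRR1 and PRR73 and 0.70 between LUX and PRR73. With ELF3-1 it was -0.33 for PRR1, -0.48 for LUX and 0.03 for PRR73. These are descriptions, since the 11 libraries fall into 4 groups and share the genotype difference. Over all 12689 loci with a mean of at least 5 FPKM, the levels most like PRR1 were those of LOC_Os07g49280 and LOC_Os03g16010 (r = 0.96 each). Their mean FPKM was 5.14 and 18.0 in stage 10 WT, 23.0 and 68.1 in the stage 10 mutant, 3.43 and 13.6 in stage 12 WT and 7.99 and 37.2 in the stage 12 mutant. Most like LUX were LOC_Os07g07520 (r = 0.96, but 0.79 with FPKM as deposited) and LOC_Os02g26790 (r = 0.94). The mean FPKM of LOC_Os07g07520 was 11.5 and 14.9 in WT and mutant at stage 10 and 12.5 and 11.5 at stage 12, so as deposited its mutant mean was the lower one at stage 12. That of LOC_Os02g26790 was 104 and 181 at stage 10 and 100.3 and 136 at stage 12.

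The other 5 clock loci were low or listed at 0. CCA1/LHY, the morning MYB repressor, had an FPKM of 0.110, 0.0269 and 0.0237 in stage 10 WT and 0, 0 and 0.0292 in the mutant. At stage 12 it was 0.0737, 0.0898 and 0.150 in WT and 0 in both mutant libraries. CCA1/LHY was thus above 0 in 6 of 6 WT and 1 of 5 mutant libraries, and the share of loci this low that split in this way is not given here. After division by relative depth, the smallest whole numbers in proportion to the CCA1/LHY values were 8, 2 and 2, then 0, 0 and 2, then 5, 6 and 11, then 0 and 0. These are the smallest read numbers that could give these values, since reads are known only up to a common multiple.

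GI had an FPKM of 0.182, 0.0850 and 0.127 in stage 10 WT and 0.209, 0.221 and 0.305 in the mutant, without overlap. Of loci past the filter, 11.4% were higher in this way, and the share of loci under it is not given here. Its FPKM at stage 12 was 0.252, 0.0852 and 0.0778 in WT and 0.119 and 0.0631 in the mutant, where the groups overlapped. Its smallest whole numbers were 8 to 33 per library, and those of PRR1 were 761 to 3101. In a fit without the filter, neither gene passed at either stage. CCA1/LHY had a log2 fold change of -0.05 at stage 10 (limma adjusted p = 0.573) and -0.12 at stage 12 (0.154), and GI 0.16 (0.245) and -0.02 (0.966). That fit kept the pseudocount of 1, which makes fold changes small at such levels whatever the change in FPKM. It therefore does not decide whether CCA1/LHY or GI differed between the genotypes.

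**Figure D5:**
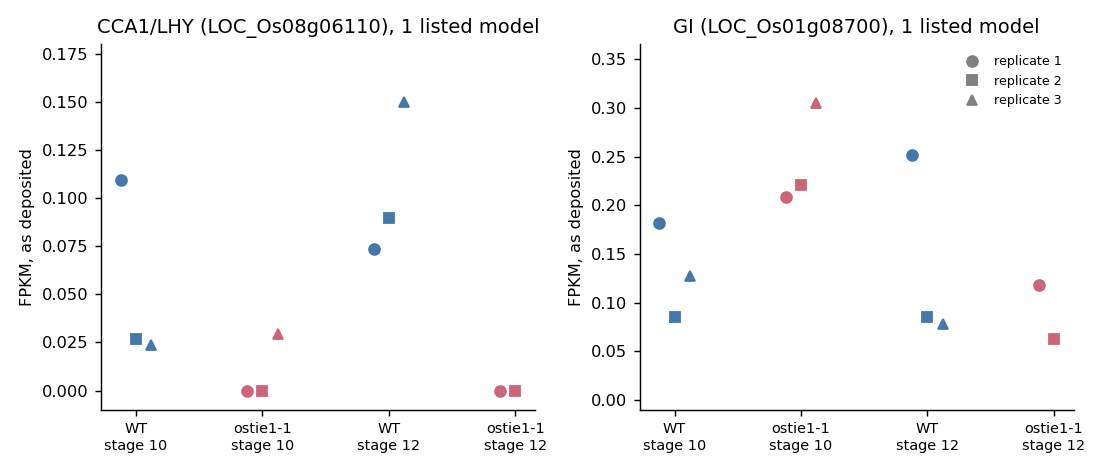
FPKM as deposited (y axis) of CCA1/LHY and GI, the pair of clock loci that were above 0 but under the filter, by group (x axis) with 1 symbol per library. CCA1/LHY is at 0 in 4 of the 5 mutant libraries and at most 0.150 elsewhere, and GI is 0.209 to 0.305 in the stage 10 mutant, above stage 10 WT, while WT stage 12 replicate 1 reaches 0.252.

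PRR37, PRR59 and PRR95, pseudo-response regulators of which PRR37 is known as a flowering-time gene of rice, were listed at 0 in all 11 libraries. All 5 loci under the filter have several transcript models (PRR37 4, PRR59 5, PRR95 2, CCA1/LHY 4 and GI 7), and CCA1/LHY and GI were above 0 in 1 model each. PRR1, LUX and ELF3-1 have 1 model each, and PRR73 has 6, of which 1 was above 0. Across the table, 19.45% of the 6457 loci with several models passed the filter, against 40.43% of the 49529 with 1 model, and 33.16% against 28.42% were at 0 in every library. How reads shared by overlapping models were counted is not given in the sources used here, and its part in these zeros was not tested. The zeros are therefore not reported as absence of these transcripts.

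The genes around the clock were described from lists of clock-associated, photoperiodic flowering and photoreceptor loci. Of the clock-associated loci 4 of 10 were tested, of the flowering loci 7 of 12 and of the photoreceptors 4 of 7. None of these 15 passed limma at stage 10 (1, 2 and 2 at an unadjusted p below 0.05) or at stage 12 (0, 2 and 0). Of all loci, 2.91% passed at stage 10 and 3.53% at stage 12, and 18.8% and 19.7% were at an unadjusted p below 0.05. Median log2 fold changes of the lists were 0.04, -0.02 and 0.42 at stage 10 and 0.24, -0.11 and 0.26 at stage 12. None of the 15 passed between the stages in WT, where 2.62% of all loci did. Averaged over the stages, 1 flowering gene of 7 was higher and 1 lower, beside the 9.52% higher and 3.55% lower of all loci, and 0 clock-associated genes and photoreceptors passed (1 and 2 at an unadjusted p below 0.05, where 32.7% of all loci lay). The genes named next were chosen after their values were seen.

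MADS50, the rice counterpart of the flowering activator SOC1, had an FPKM of 25.0, 22.3 and 40.7 in stage 10 WT and 119, 72.1 and 67.9 in the mutant, and of 16.0, 34.2 and 29.6 in stage 12 WT and 39.4 and 53.0 in the mutant. The mutant libraries were the higher ones at each stage without overlap, a separation shared by 11.4% of all loci at stage 10 and 17.0% at stage 12. The mean log2 fold change was 1.42 (SE 0.37, limma adjusted p = 0.0297). DTH8, a subunit of the NF-Y factor that delays flowering in long days, had 5.60, 4.92 and 12.1 in stage 10 WT and 1.76, 1.61 and 0.959 in the mutant, and 2.49, 4.66 and 1.79 in stage 12 WT and 0.162 and 0.517 in the mutant. It was lower in every mutant library of each stage, with a mean log2 fold change of -1.47 (SE 0.35, adjusted p = 0.0225). At stage 12, 31.8% of all loci were lower without overlap, and the share at stage 10 is not given here. Leaving out 1 library, MADS50 passed in 4 of 11 fits and DTH8 in 6 of 11, with adjusted p up to 0.121 and 0.0711.

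ELF4a, a relative of the small evening complex protein ELF4, had an FPKM of 0.0322, 0.132 and 1.11 in stage 10 WT and 1.29, 4.82 and 1.93 in the mutant. At stage 12 it was 0.386, 0.0726 and 0.366 in WT and 1.26 and 0.448 in the mutant. Among WT libraries only stage 10 replicate 3 reached 1 FPKM, so ELF4a passed the expression filter through its mutant libraries. Its higher mutant levels are thus partly fixed by that filter. Mutant libraries were higher at each stage without overlap, a separation shared by 11.4% of all loci at stage 10 and 17.0% at stage 12. The mean log2 fold change of 0.97 (SE 0.30) had a limma adjusted p of 0.0571. At stage 10 alone it was 1.34 (SE 0.41, adjusted p = 0.115). It passed there in 1 of the 11 fits that left out a library, the one without WT stage 10 replicate 3 (1.79, adjusted p = 0.00490), with adjusted p up to 0.388 in the others.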

How the data were processed

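Per the submitters' processing notes, reads were handled with HISAT2 2.2.0, featureCounts and the IRGSP-1.0 build. The authors deposited FPKM per transcript model for 66338 models, and how counts became FPKM is not given in the sources used here. Models were summed per locus. Loci with at least 1 FPKM in at least 2 libraries were divided by median-of-ratios factors, put on log2(value + 1) and fitted with limma 3.58.1 (trend; R 4.3.3), 1 mean per group over 11 libraries, Benjamini-Hochberg over all loci. The fit was tested on simulated data. Read depth is known only in relative terms, so counting intervals are not given. Alternatives were 3 scalings, 2 pseudocounts, 2 filters, no variance trend, library weights, a replicate block, only the groups compared, and leaving out each library. The 9 loci and all gene lists were chosen with earlier results of these data known. Gene names come from general knowledge of rice loci, and the RefSeq names given held none of these IDs. Named genes were all 9 clock loci, genes of 3 related lists passing a planned genotype comparison (there were none), and the 2 loci most like each clock gene that passed. MADS50, DTH8 and ELF4a were named after their values were seen. No sequence was used here, so a planned promoter motif search was not run.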

Additional observations from a re-analysis of the deposited data

Results flagged for a closer look

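The stage difference of CCA1/LHY had opposite signs in the genotypes: mean FPKM was 0.0512 higher at stage 12 than at stage 10 in WT, and the difference was -0.00974 in ostie1-1. The genotype difference of GI had opposite signs at the stages: mean FPKM in ostie1-1 minus WT was 0.114 at stage 10 and -0.0473 at stage 12. Both loci were under the expression filter, and the difference between these effects was tested with limma only in the fit without a filter. Its adjusted p there was 0.950 for CCA1/LHY and 0.779 for GI. With a pseudocount of 1, that fit does not decide whether the effects differed at such low levels.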

How the results depend on the processing

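Of the clock genes, 2 passed at stage 10, 1 at stage 12 and 0 between the stages in WT. At stage 10 the number was 1 with FPKM as deposited, 0 with TPM, 4 with library weights, 1 with a replicate block, 0 with only the groups compared and 0 to 3 leaving out 1 library. At stage 12 it was 0 with FPKM as deposited, TPM and the block, and 0 to 1 leaving out 1 library, and in WT between the stages it was 1 with library weights.

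Loci passing at stage 10 went from 619 to 13575 with library weights, 331 with the block, 111 with only the groups compared and 157 to 7118 leaving out 1 library. At stage 12 they went from 751 to 499 with TPM, 284 with pseudocount 0.1, 1164 with no filter, 453 with a mean of at least 1 FPKM, 1137 with weights, 1772 with only the groups compared and 212 to 3488 leaving out 1 library. Between the stages in WT they went from 557 to 335 with pseudocount 5, 62 with no filter, 2342 with weights, 319 with only the groups compared and 3 to 598, and in ostie1-1 from 2281 to 4003 with weights and 613 to 4808. For the difference between the genotype effects, 4 loci became 7 with FPKM as deposited, 0 with TPM, 9 with quantile normalization, 0 with pseudocount 0.1, 118 with pseudocount 5, 196 with no filter, 1 with a mean of at least 1 FPKM, 1 with no trend, 148 with weights, 0 with the block and 0 to 18. For the mean genotype effect, 2782 became 10105 with weights and 1131 to 9262. The causes were not tested.

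Some signs reversed, none of them for PRR1, LUX or PRR73 between genotypes. PRR73 between the stages in WT was 0.026 with FPKM as deposited, and with library weights ELF3-1 at stage 10 was 0.50 (limma adjusted p = 0.0444), LUX in WT -0.065 and the PRR1 difference between stages 0.069. Leaving out 1 library, ELF3-1 ranged from -0.43 to 0.33 at stage 10, -0.15 to 0.60 in WT and -1.30 to 0.23 in ostie1-1, LUX in WT from -0.070 to 0.44, PRR73 in ostie1-1 from -0.52 to 0.020, and the difference of effects from -0.11 to 0.11 for PRR1, -0.37 to 0.18 for PRR73 and -1.44 to 0.081 for ELF3-1.

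Deviations of libraries from their group means correlated at -0.469 to 0.147 for same-numbered libraries and at -0.469 to 0.469 for the others. Deviations within a group of 2 or 3 libraries are tied to each other. These values therefore cannot decide whether the replicate numbers pair the samples. With the replicate block PRR1 had an adjusted p of 0.0554 at stage 10 and 0.0890 at stage 12, and LUX passed at stage 10.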
